A study of Mus musculus with 11 samples.

Results

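Fibroblasts of a tumor are recognised by surface proteins (Pdgfra, Pdgfrb, Fap, Thy1), by matrix proteins they secrete (Postn, Fbn1, Sparc), by the transcription factor Twist1 and, once they turn into contractile myofibroblasts, by smooth muscle proteins (Acta2, Tagln). These 10 genes were followed in 11 mammary tumors of the mouse carcinoma line E0771. A member was represented by the probe set that carries its symbol in the platform annotation. Of the 10 genes, 8 were matched, each by 1 probe set. Pdgfra and Fbn1 were not matched to a probe set and are not analysed here. The arrays carry 19505 distinct gene symbols in all.

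The tested tumors came from E0771 cells transduced with shPC25 (n = 3 tumors) or shPC28 (n = 4 tumors), lentiviral pLKO.1 hairpins against Pcx, the gene of pyruvate carboxylase, and the control tumors from cells with a scrambled hairpin (scram, n = 4 tumors). Each C57BL6J mouse received 500000 cells in mammary fat pad number 4, was otherwise untreated, and per the study's methods was a young adult female on the same diet in every group, with the titles carrying LFD, which they do not spell out. The hairpin was in the injected cells only, so host fibroblasts were not targeted. Cells were transduced before injection and no repeat of that step is given. Replicate tumors therefore stand for mice, each with its own injection, excision and array, and not for repeats of the transduction. Differences between the transduced lines other than Pcx cannot be told apart from the hairpin. RNA was extracted from whole tumors, in which fewer cells of a type and less RNA per cell cannot be told apart.

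PDGF receptors are tyrosine kinases through which platelet-derived growth factors drive the growth and migration of fibroblasts and pericytes. Transforming growth factor beta (TGF-beta) turns fibroblasts into myofibroblasts, which assemble smooth muscle actin fibres under serum response factor (SRF) and its myocardin family partners and deposit periostin and fibrillar collagen. Carcinoma cells of mesenchymal type can transcribe several of these genes too, and whole-tumor signals do not say which cell a transcript came from. Thy1 is, besides fibroblasts, a marker of mouse T cells.

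Promoter windows from RefSeq (GRCm38.p6, 250 bases before to 50 after a transcript start) were found for 6 of the 10 genes. The windows of Acta2, Postn and Twist1 are shown because they belong to a contractile member that varied widely between tumors, to the matrix member with the largest difference and to the member that was higher in shPC tumors. In Acta2 (chr19:34255324-34255623, minus strand) capitals mark the matches to a CArG box, the SRF recognition sequence, allowing 1 base outside A and T in its core. In the downstream Postn window (chr3:54360857-54361156, plus strand) and in Twist1 (chr12:33957421-33957720, plus strand) capitals mark TATAAA on either strand.
Acta2: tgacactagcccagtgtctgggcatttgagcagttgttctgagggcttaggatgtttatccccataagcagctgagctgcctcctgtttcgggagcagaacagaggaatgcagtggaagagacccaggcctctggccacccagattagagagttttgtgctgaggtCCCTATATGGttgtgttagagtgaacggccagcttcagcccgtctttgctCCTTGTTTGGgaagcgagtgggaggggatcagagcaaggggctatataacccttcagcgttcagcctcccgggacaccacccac
Postn: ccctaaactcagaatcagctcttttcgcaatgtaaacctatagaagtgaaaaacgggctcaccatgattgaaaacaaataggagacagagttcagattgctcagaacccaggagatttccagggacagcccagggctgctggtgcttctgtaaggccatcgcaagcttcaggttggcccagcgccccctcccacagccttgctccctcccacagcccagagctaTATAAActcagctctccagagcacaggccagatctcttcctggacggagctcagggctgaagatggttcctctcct
Twist1: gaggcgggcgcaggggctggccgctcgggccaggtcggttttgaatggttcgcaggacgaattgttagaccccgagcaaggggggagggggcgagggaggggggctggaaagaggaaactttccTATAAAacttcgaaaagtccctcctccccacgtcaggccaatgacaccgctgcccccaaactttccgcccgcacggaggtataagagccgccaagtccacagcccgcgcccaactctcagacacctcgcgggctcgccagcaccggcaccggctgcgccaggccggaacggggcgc
The Acta2 matches begin 84 and 34 bases before the start. SRF elements with such an imperfect core are known in this promoter. Neither is a strict CArG box, and 0 strict boxes lay in the 6 genes' windows. On both strands, 9.98% of all 32851 windows of the table held the relaxed CArG box and 1.63% the strict one. TATAAA began 26 bases before the start in Postn and 126 bases before it in Twist1, and 13.6% of all windows held it. GGGCGG, held by 35.7% of windows, had 1 match each in Twist1 and Fbn1. CANNTG, the E-box that basic helix-loop-helix proteins such as Twist1 bind, had 3 matches each in Acta2 and Sparc, 2 in Pdgfra and 1 in Fbn1, against 72.3% of windows with a match. TGANTCA, the AP-1 motif, had 0 matches in them and was held by 7.81% of windows. The relaxed CArG box was added after the windows had been read. The motifs are described only, since the arrays do not measure binding.

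The arrays agreed closely, with r from 0.987 to 0.994 between tumors across 22206 probe sets. On the first principal component (16.8% of the variance) scram replicate 4 scored 2.44, among the shPC tumors, which spanned -3.71 to 26.1, whereas the other scram tumors lay between -41.0 and -24.9. Pcx had log2 signals of 3.12 to 3.42 in shPC25 tumors and 2.32 to 3.76 in shPC28 tumors, against 3.41 to 4.48 in scram tumors. Its difference was -0.80 (SE 0.27, adjusted p = 0.388, limma), at a level where olfactory receptor probe sets, a gauge of background, had their 95th percentile at 4.30. In shPC28 replicate 4 the lymph node gene Glycam1 read 11.13, while the other 10 tumors read 2.80 to 3.94.

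**Figure D1:**
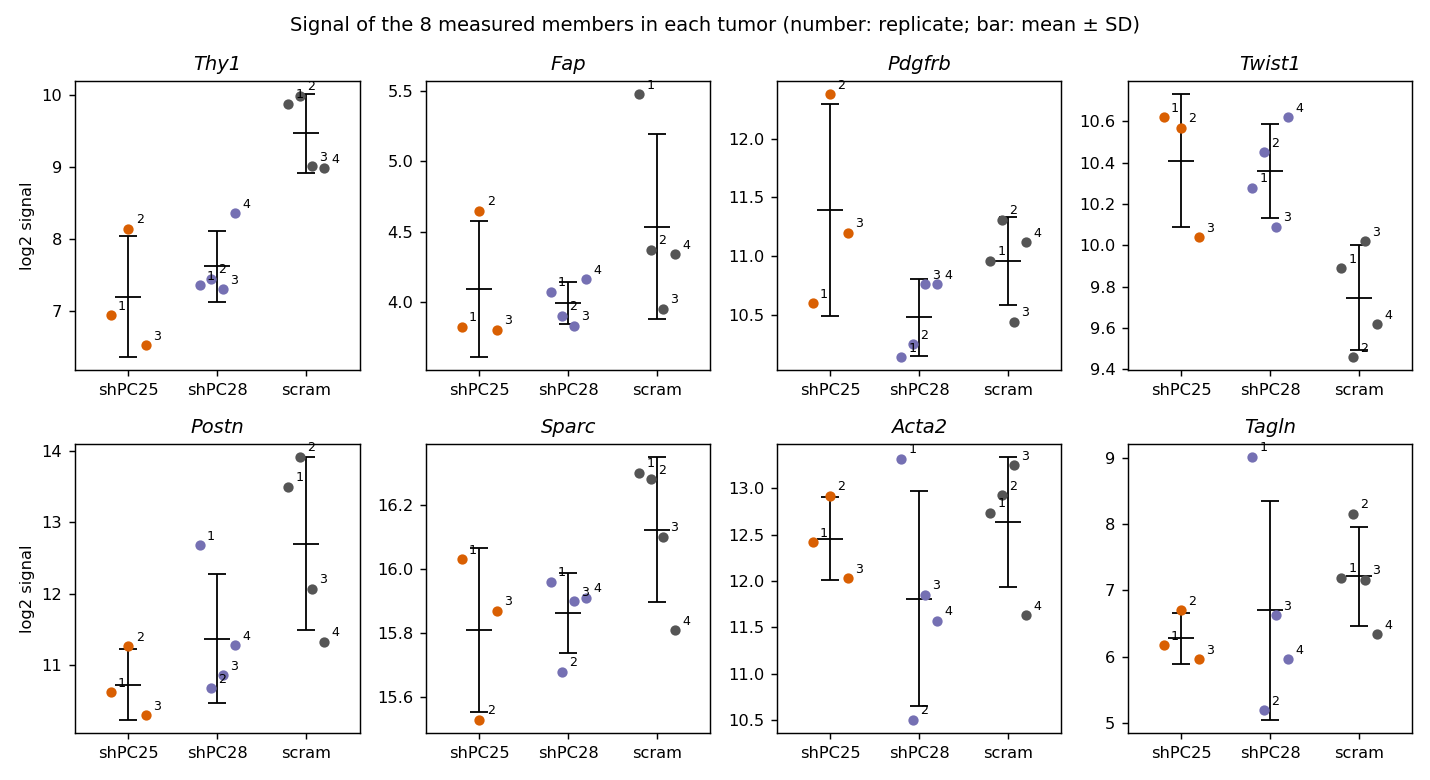
Log2 signal (y axis, own scale in each panel) of the 8 measured genes in shPC25, shPC28 and scram tumors (x axis), 1 point per tumor with its replicate number and the group mean ± SD. All 7 shPC tumors lie below all 4 scram tumors for Thy1 and above them for Twist1, and shPC28 replicate 1 is the highest tumor for Acta2 and Tagln.

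Relative to scram, the mean of both shPC groups was lower for 7 of the 8 measured members and higher for Twist1. The 7 lower differences ran from -2.06 for Thy1 to -0.022 for Pdgfrb. The median of the 8 was -0.50 on the log2 scale, while the median of all 22206 probe sets was 0.02. None of the 8 passed an adjusted p of 0.05 in limma, and over all probe sets 3 did so lower (0.0135%) and 0 higher (0%). At an unadjusted p under 0.05 Thy1 and Postn were lower (2 of 8, against 4.76% of all probe sets) and Twist1 was higher (1 of 8, against 4.34%). Groups without overlap were seen for Thy1 on the lower side (1 of 8, against 0.703% of all probe sets) and for Twist1 on the higher side (1 of 8, against 0.842%).

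Thy1 (CD90) is a small glycoprotein tethered to the outer membrane of fibroblasts, T cells and neurons. Its log2 signals were 6.94, 8.14 and 6.52 in shPC25 tumors and 7.36, 7.45, 7.30 and 8.36 in shPC28 tumors, against 9.88, 9.99, 9.01 and 8.98 in scram tumors. Every shPC tumor lay below every scram tumor, and the gap between the highest shPC and the lowest scram tumor was the one between shPC28 replicate 4 and scram replicate 4. The difference was -2.06 (SE 0.34, 95% interval -2.80 to -1.31), a 4.16-fold lower signal in shPC tumors, with an adjusted p of 0.0729 in limma. It was -2.26 for shPC25 (adjusted p = 0.172) and -1.85 for shPC28 (adjusted p = 0.257, limma). The p crossed the threshold with a trended and robust prior (0.0249), with array weights (0.0477) and without shPC25 replicate 2 (0.0382), and lay between 0.0615 and 0.233 in the other alternatives. T cell markers were read beside Thy1. Of 9 measured T cell markers 1 was lower and 8 were higher in shPC tumors, 0 passed an unadjusted p of 0.05, and the mean log2 signal of the list was 5.89 to 8.16 in shPC tumors and 5.85 to 6.83 in scram tumors. By hairpin, 4 were lower and 5 higher in shPC25 (median 0.03), and 0 lower and 9 higher in shPC28 (median 0.52). Cd3e, an invariant chain of the T cell receptor complex, had log2 signals of 6.77 to 10.07 in shPC tumors and 7.12 to 8.62 in scram tumors, with differences of -0.50 in shPC25 and 0.91 in shPC28. Its 10.07 came from shPC28 replicate 4, the tumor with the Glycam1 signal.

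Fap, a membrane serine protease of activated fibroblasts, was near background. It read 3.82, 4.65 and 3.80 in shPC25 tumors and 4.07, 3.90, 3.83 and 4.16 in shPC28 tumors, against 5.48, 4.37, 3.95 and 4.34 in scram tumors. Only shPC25 replicate 2 and scram replicates 1, 2 and 4 exceeded the olfactory receptor 95th percentile of 4.30. The difference of -0.50 (SE 0.27, adjusted p = 0.638, limma) was -0.18 without scram replicate 1. Dpp4, the closest relative of Fap, differed by -0.10 (SE 0.31).

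Pdgfrb, the PDGF receptor of fibroblasts and pericytes, read 10.60, 12.38 and 11.20 in shPC25 tumors and 10.14, 10.25, 10.76 and 10.76 in shPC28 tumors, against 10.96, 11.31, 10.44 and 11.12 in scram tumors. The groups overlapped, and shPC25 replicate 2 was the highest tumor. The mean of both shPC groups differed from scram by -0.022 (95% interval -0.69 to 0.64), so that a change of the size seen for Thy1 lies outside the interval. The hairpins lay on opposite sides of scram, at 0.44 (SE 0.37) for shPC25 and -0.48 (SE 0.34) for shPC28. Without shPC25 replicate 2 the shPC25 difference was -0.058. Among the ligands, Pdgfc had the smallest p, with a difference of -0.85 (SE 0.18, adjusted p = 0.164, limma) and 5.47 to 6.61 in shPC tumors against 6.47 to 7.37 in scram tumors. The Pdgfc difference was -1.22 (SE 0.22) in shPC25 and -0.49 (SE 0.20) in shPC28. Pdgfa differed by -0.43 (SE 0.22) and Pdgfb by -0.019 (SE 0.27). Downstream of the receptor, phospholipase C gamma (Plcg1) read 10.14 to 10.97 in shPC tumors and 9.84 to 10.06 in scram tumors without overlap (0.54, SE 0.12, adjusted p = 0.197, limma), and the guanine nucleotide exchange factor Sos1 differed by 0.37 (SE 0.15). The Plcg1 difference was 0.77 (SE 0.15) in shPC25 and 0.31 (SE 0.14) in shPC28. Pdgfc and Plcg1 each differed between the hairpins at an unadjusted p under 0.05, but not past the adjusted threshold. Of 10 PDGF ligands and signaling genes, 1 was lower and 2 were higher at an unadjusted p under 0.05 in both shPC minus scram, and none passed the adjusted threshold.

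Postn (periostin) is a matricellular protein that binds collagen and integrins. It read 10.61, 11.26 and 10.29 in shPC25 tumors and 12.68, 10.67, 10.85 and 11.27 in shPC28 tumors, against 13.50, 13.92, 12.07 and 11.32 in scram tumors. Scram tumors spanned 11.32 to 13.92, and of the shPC tumors shPC28 replicate 1 alone lay above scram replicate 4. The difference was -1.66 (SE 0.52, 95% interval -2.79 to -0.53, adjusted p = 0.337, limma), and 7 of 7 shPC tumors read less than the scram mean. The shPC25 difference was -1.98 (SE 0.63) and the shPC28 difference -1.34 (SE 0.58). The shPC25 tumors did not overlap with scram. Leaving out 1 tumor moved the value between -2.12, without scram replicate 4, and -1.25, without scram replicate 2. Tgfbi, the closest relative of Postn, differed by -0.52 (SE 0.22), and read 14.65 to 15.32 in shPC tumors and 14.76 to 16.03 in scram tumors.

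Sparc (osteonectin), a collagen-binding matricellular glycoprotein, read 16.03, 15.53 and 15.87 in shPC25 tumors and 15.96, 15.68, 15.90 and 15.91 in shPC28 tumors, against 16.30, 16.28, 16.10 and 15.81 in scram tumors. The scram mean exceeded 7 of 7 shPC tumors and 3 scram tumors lay above all of these, while scram replicate 4 lay within the shPC range. The difference was -0.29 (SE 0.14, 95% interval -0.60 to 0.03, adjusted p = 0.598, limma). Its relative Sparcl1 differed by 0.31 (SE 0.38).

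Twist1, a basic helix-loop-helix transcription factor of mesenchymal cells, went the other way. It read 10.62, 10.57 and 10.04 in shPC25 tumors and 10.28, 10.45, 10.09 and 10.62 in shPC28 tumors, against 9.89, 9.46, 10.02 and 9.62 in scram tumors. The groups did not overlap, but shPC25 replicate 3 and scram replicate 3 were only 0.02 apart to the 2 decimals of the files. The difference was 0.64 (SE 0.17, 95% interval 0.27 to 1.01), a 1.56-fold higher signal, with an adjusted p of 0.252 in limma. The shPC25 value was 0.66 (SE 0.20) and the shPC28 value 0.61 (SE 0.19), with a 95% interval of -0.50 to 0.40 for shPC28 minus shPC25. The difference of both groups ran from 0.54 to 0.73 when 1 tumor was left out. Its paralog Twist2 also read higher without overlap, at 10.92 to 11.24 in shPC tumors and 10.52 to 10.83 in scram tumors (0.35, SE 0.12, adjusted p = 0.390, limma). Of 12 other mesenchymal transcription factors measured, 9 were lower and 3 higher, and at an unadjusted p under 0.05 4 were lower and Twist2 alone was higher. The 4 were Tbx18 (-0.83, SE 0.20), Osr1 (-0.94, SE 0.24), Snai1 (-0.38, SE 0.14) and Snai2 (-0.67, SE 0.25), and the median of the 12 was -0.25. Tbx18 and Osr1 read at most 4.49 in any tumor, near background.

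Acta2, the actin isoform of smooth muscle and myofibroblasts, varied between tumors more than between groups. It read 12.42, 12.92 and 12.03 in shPC25 tumors and 13.32, 10.50, 11.85 and 11.57 in shPC28 tumors, against 12.74, 12.93, 13.25 and 11.63 in scram tumors. Both the highest and the lowest tumor were shPC28 tumors, 2.82 log2 units apart. The difference was -0.50 (SE 0.46, 95% interval -1.52 to 0.52, adjusted p = 0.807, limma). For shPC28 it was -0.83 with all tumors, -1.33 without shPC28 replicate 1 and -0.39 without shPC28 replicate 2. For shPC25 it was -0.18, and 0.033 without shPC25 replicate 3.

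Tagln (transgelin, SM22), an actin-binding protein of the same cells, had the widest spread of the 8 members. It read 6.17, 6.70 and 5.96 in shPC25 tumors and 9.02, 5.19, 6.63 and 5.96 in shPC28 tumors, against 7.19, 8.16, 7.16 and 6.34 in scram tumors. The same tumors stood out as for Acta2, with shPC28 replicate 1 highest and shPC28 replicate 2 lowest. The difference was -0.72 (SE 0.60, 95% interval -2.05 to 0.60, adjusted p = 0.777, limma) and -1.11 without shPC28 replicate 1, -0.47 without shPC28 replicate 2 and -0.41 without scram replicate 2. Of 14 other contractile genes, Cnn1 and Myl9 (2 of 14) were also highest in shPC28 replicate 1, and these and Ccn2 are named after their values were seen. Calponin (Cnn1) read 6.21 there and 3.89 to 4.36 in the other 10 tumors, Myl9, the smooth muscle myosin light chain, read 6.86 there and 5.41 to 6.60 elsewhere, and Ccn2 read 11.41 there and 7.40 to 10.58 elsewhere. Smooth muscle myosin (Myh11) read 4.60 there and 4.38 to 5.80 elsewhere.

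**Figure D2:**
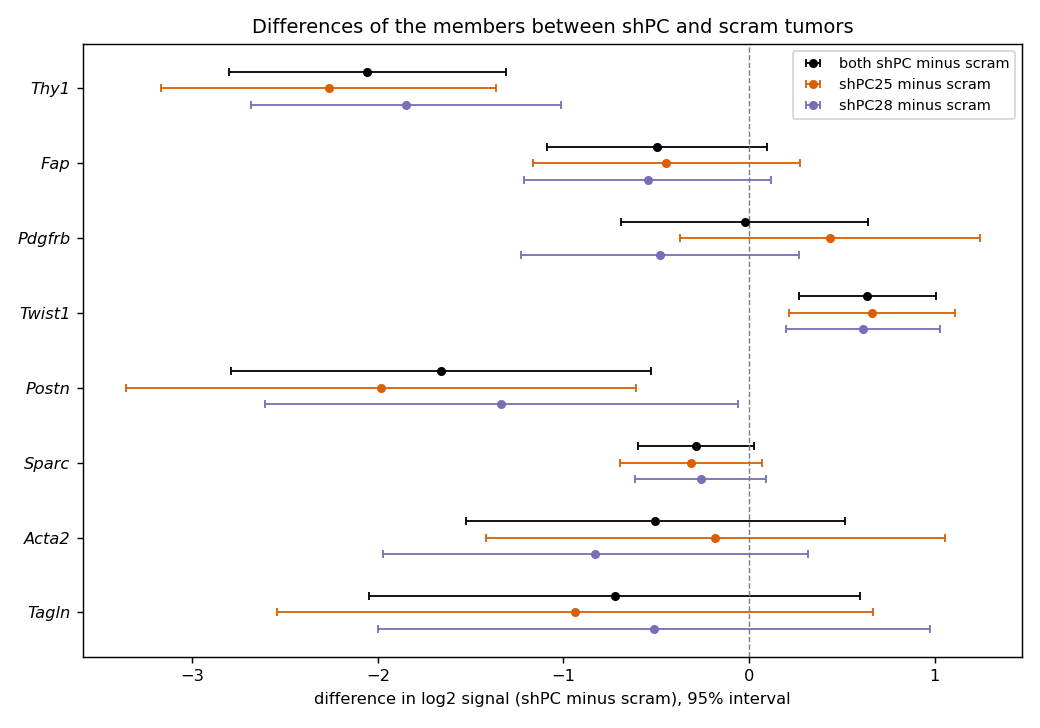
Difference in log2 signal (x axis) of each measured gene (y axis) for both shPC groups, shPC25 and shPC28, each minus scram, with 95% intervals from limma. The intervals of Thy1, Postn and Twist1 exclude 0 in all 3 comparisons before adjustment, and those of the other 5 genes include it.

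Taken 1 hairpin at a time, the same 3 members were at an unadjusted p under 0.05. In shPC25 minus scram Thy1 and Postn were lower (2 of 8, against 4.16% of all probe sets) and Twist1 was higher (1 of 8, against 4.29%). In shPC28 minus scram Thy1 and Postn were lower (2 of 8, against 3.72%) and Twist1 was higher (1 of 8, against 3.69%). The Postn call in shPC28 was lost with the trended and robust prior, with only the groups compared, with the methods' t-test and in 6 of 11 fits that left out 1 tumor, namely scram replicates 1 (difference -1.07) and 2 (-0.93), shPC25 replicate 1 (-1.34, as with all tumors) and shPC28 replicates 2 (-1.10), 3 (-1.16) and 4 (-1.30). The comparisons share the scram tumors. None passed the adjusted threshold, in either direction, for shPC25 (0% of all probe sets lower, 0% higher) or for shPC28 (0% lower, 0% higher). Between the hairpins, shPC28 minus shPC25, Pdgfrb was lower at an unadjusted p under 0.05 (1 of 8, against 2.46% of all probe sets lower and 2.14% higher), with a difference of -0.92 (SE 0.37, 95% interval -1.72 to -0.11). That difference was -0.42 without shPC25 replicate 2. The other 7 ranged from -0.65 for Acta2 to 0.65 for Postn, with intervals that include 0, and 0 of all probe sets (0% lower, 0% higher) passed the adjusted threshold.

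From low to high, the group means were ordered shPC25, shPC28, scram for Thy1, Postn, Tagln and Sparc, and shPC28, shPC25, scram for Acta2 and Fap. The order was shPC28, scram, shPC25 for Pdgfrb and scram, shPC28, shPC25 for Twist1. Within these orders, the 95% interval of shPC28 minus shPC25 included 0 for every member but Pdgfrb, and those of both hairpins against scram excluded 0 for Thy1, Postn and Twist1 alone, before adjustment.

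Across the 11 tumors the members did not form 1 group. Acta2 and Tagln were most alike (Pearson's r = 0.82), followed by Thy1 with Postn (0.80) and Postn with Tagln (0.78). The group difference contributes to the likeness of Thy1 and Postn, whose r was 0.55 after each group's mean was subtracted, whereas that of Acta2 and Tagln was then 0.92. Thy1 and Acta2 were little alike, at 0.31 with all tumors and 0.18 after the subtraction. Twist1 ran against the other 7, from -0.61 with Thy1 to -0.11 with Pdgfrb. The likeness to Thy1 was 0.37 after the group means were subtracted. These correlations describe 11 arrays that share 1 normalization and 3 groups, and carry no test.

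**Figure D3:**
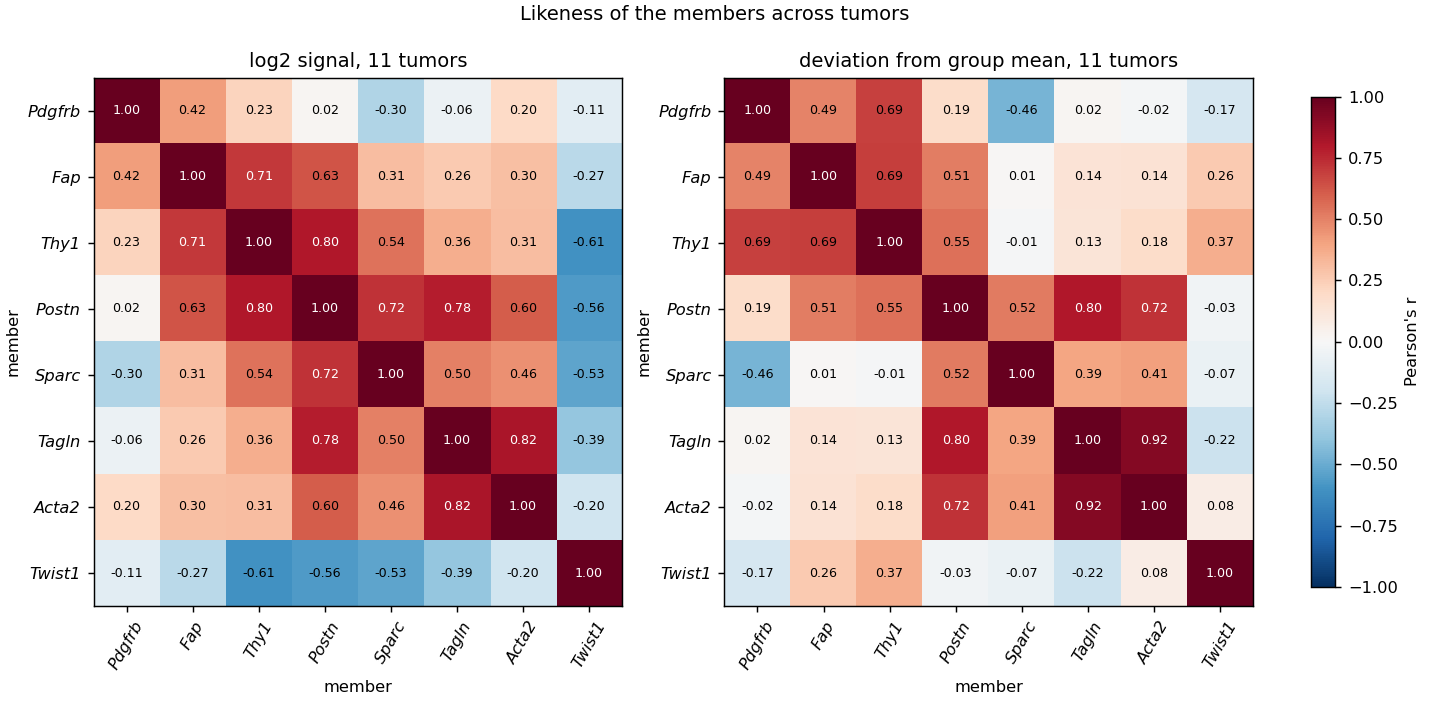
Pearson's r between each pair of the 8 measured members (both axes) over the 11 tumors, from the log2 signals (left) and after each group's mean was subtracted (right). Acta2 and Tagln stay alike on the right (0.92), while the negative values of Twist1 with Thy1 (-0.61) and Postn (-0.56) on the left become 0.37 and -0.03.

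The genes most like each member, among 18584 probe sets with a named gene, were found by Pearson's r over the 11 tumors. For Postn they were the matrix genes Thbs2 (0.96), Col5a2 (0.94) and Bgn (0.93). For Thy1 they were Pglyrp1 (0.95), a peptidoglycan recognition protein of neutrophils, the autophagy regulator Dram1 (0.95) and Ccdc80 (0.94). For Tagln they were Myl9 (0.96), Dock6 (0.92) and Ccdc158 (0.91). For Sparc they were Sec61a2 (0.91), C1qtnf3 (0.91) and Cthrc1 (0.90). Twist1 was most like Dhrs9 (0.95), Fam149a (0.93) and C2cd3 (0.91), and Acta2 most like Clgn (0.90), Arg1 (0.90) and B3galnt1 (0.89). The genes most like Fap were Otp (0.93), Tnfsf11 (0.93) and Qsox1 (0.92), and those most like Pdgfrb were Vmn1r226 (0.95), Septin14 (0.93) and Tbc1d10b (0.92). Group differences contribute to these values. After the group means were subtracted, r was 0.85, 0.80 and 0.83 for the 3 genes of Thy1. It was 0.89, 0.84 and 0.76 for those of Twist1. Of these 24 genes, 8 averaged under the background gauge of 4.30 on the log2 scale. They were Otp (3.48) and Tnfsf11 (4.15) for Fap, Vmn1r226 (2.81) and Septin14 (3.43) for Pdgfrb, Clgn (3.80) for Acta2, Dock6 (3.82) and Ccdc158 (3.80) for Tagln, and C1qtnf3 (4.05) for Sparc.

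Other fibroblast genes had larger differences than most members. Of 22 measured pan-fibroblast genes, 14 were lower and 1 was higher at an unadjusted p under 0.05, none passed the adjusted threshold, and their median difference was -1.41. The proteoglycans decorin (Dcn) and lumican (Lum) differed by -3.21 (SE 0.76) and -3.19 (SE 0.60), the gelatinase Mmp2 by -2.40 (SE 0.52) and collagen III (Col3a1) by -2.20 (SE 0.61). Lum read 4.80 to 6.97 in shPC tumors and 7.50 to 10.46 in scram tumors, without overlap. The gene higher at an unadjusted p under 0.05 was the actin-severing protein gelsolin (Gsn), at 0.59 (SE 0.21). Vimentin (Vim), the intermediate filament of mesenchymal cells, had 17.40 to 17.81 in shPC tumors and 17.40 to 17.72 in scram tumors, a difference of 0.01 (SE 0.12). The mean of the 22 genes was 8.20 to 9.48 in shPC tumors, and was 10.85, 10.54, 10.02 and 8.93 in scram replicates 1 to 4. Scram replicate 4 thus lay within the shPC range for this list, as it did for every measured member but Thy1 and Twist1. Across tumors the list mean was most like Postn (r = 0.94), then Thy1 (0.81), Sparc (0.79), Tagln (0.70), Acta2 (0.69) and Fap (0.67), and least like Pdgfrb (0.09) and Twist1 (-0.59).

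Genes of elastic fibres and microfibrils, the structures built on fibrillin, were lower at an unadjusted p under 0.05 in 6 of 11 cases and higher in 0, with a median of -0.92. The fibulin Fbln2, which binds fibrillin and elastin, read 11.12 to 12.25 in shPC tumors and 12.69 to 13.25 in scram tumors (-1.25, SE 0.23, adjusted p = 0.115, limma). Fbln5 differed by -1.48 (SE 0.38), Fbln1 by -1.29 (SE 0.35) and Mfap2 by -1.09 (SE 0.40). Mfap2 read 2.97 to 3.54 in shPC tumors, all under the background gauge of 4.30, and 3.05 to 5.61 in scram tumors. Fbln5 was near the gauge in shPC tumors, at 2.94 to 4.35, and read 4.38 to 6.27 in scram tumors. Fbn2, the relative of Fbn1, read at most 3.98 in any tumor. Of 11 matricellular genes other than Postn and Sparc, 3 were lower and 0 higher at an unadjusted p under 0.05 (median -0.40), namely Ccn4 (-1.34, SE 0.40), Thbs2 (-1.80, SE 0.59) and Tnxb (-0.55, SE 0.20).

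The contractile programme beyond Acta2 and Tagln had differences on both sides of 0. Of 14 measured genes, 1 was lower and 2 were higher at an unadjusted p under 0.05, and the median difference was -0.03, against 0.02 over all probe sets. Myosin light chain kinase (Mylk) was the lower one, at 4.51 to 5.71 in shPC tumors and 5.68 to 6.34 in scram tumors (-0.76, SE 0.18, adjusted p = 0.206, limma). The tropomyosins Tpm2 (0.41, SE 0.16) and Tpm1 (0.27, SE 0.11) were the higher ones, and Tpm1 read 16.01 to 16.31 in shPC tumors and 15.68 to 15.96 in scram tumors. In shPC25 1 contractile gene was lower and 2 were higher at an unadjusted p under 0.05, and in shPC28 1 was lower and 0 higher. Mylk differed by -1.025 (SE 0.22) in shPC25 and -0.49 (SE 0.20) in shPC28. Tpm2 and Tpm1 were at such a p in shPC25 only, and differed by 0.305 (SE 0.18) and 0.23 (SE 0.13) in shPC28. The muscle filament protein desmin (Des) differed by -0.81 (SE 0.46) in both shPC minus scram. Among the actins, Acta1, the skeletal muscle isoform, read 4.39 to 5.32 in shPC tumors and 5.50 to 7.74 in scram tumors (-1.37, SE 0.36, adjusted p = 0.254, limma), Actc1 differed by -0.35 (SE 0.16) and Actg2 by -0.22 (SE 0.47), while cytoplasmic Actb differed by -0.03 (SE 0.10). Tagln2 differed by -0.06 (SE 0.11) and the neuronal Tagln3 by -0.01 (SE 0.22). Of 10 SRF and myocardin family regulators 0 were at an unadjusted p under 0.05. The smallest p were those of Foxo4 (0.37, SE 0.24), Wwtr1 (0.28, SE 0.20), Myocd (-0.28, SE 0.23, at most 3.26 in any tumor) and Hmg20b (-0.10, SE 0.14).

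TGF-beta signaling was lower in 3 of 19 genes and higher in 0 at an unadjusted p under 0.05, with a median of -0.21. The 3 were the pseudoreceptor Bambi (-0.88, SE 0.28), the latent TGF-beta binding protein Ltbp2 (-1.12, SE 0.44) and the type I receptor Tgfbr1 (-0.41, SE 0.17). Bambi read 2.72 to 4.03 in shPC tumors and 3.41 to 4.61 in scram tumors, so that every shPC tumor and 1 scram tumor lay under the background gauge of 4.30. The type II receptor Tgfbr2 differed by -0.43 (SE 0.21) and the ligand Tgfb1 by 0.08 (SE 0.11). In shPC25 4 of the 19 were lower and 0 higher at an unadjusted p under 0.05, and in shPC28 1 was lower and 0 higher. Both receptors differed mainly in shPC25. Tgfbr1 was at -0.69 (SE 0.21) in shPC25 and -0.13 (SE 0.20) in shPC28, and Tgfbr2 at -0.79 (SE 0.25) and -0.08 (SE 0.23). Ccn2, a matrix-cell signaling protein induced by TGF-beta, differed by -1.16 (SE 0.68).

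**Figure D4:**
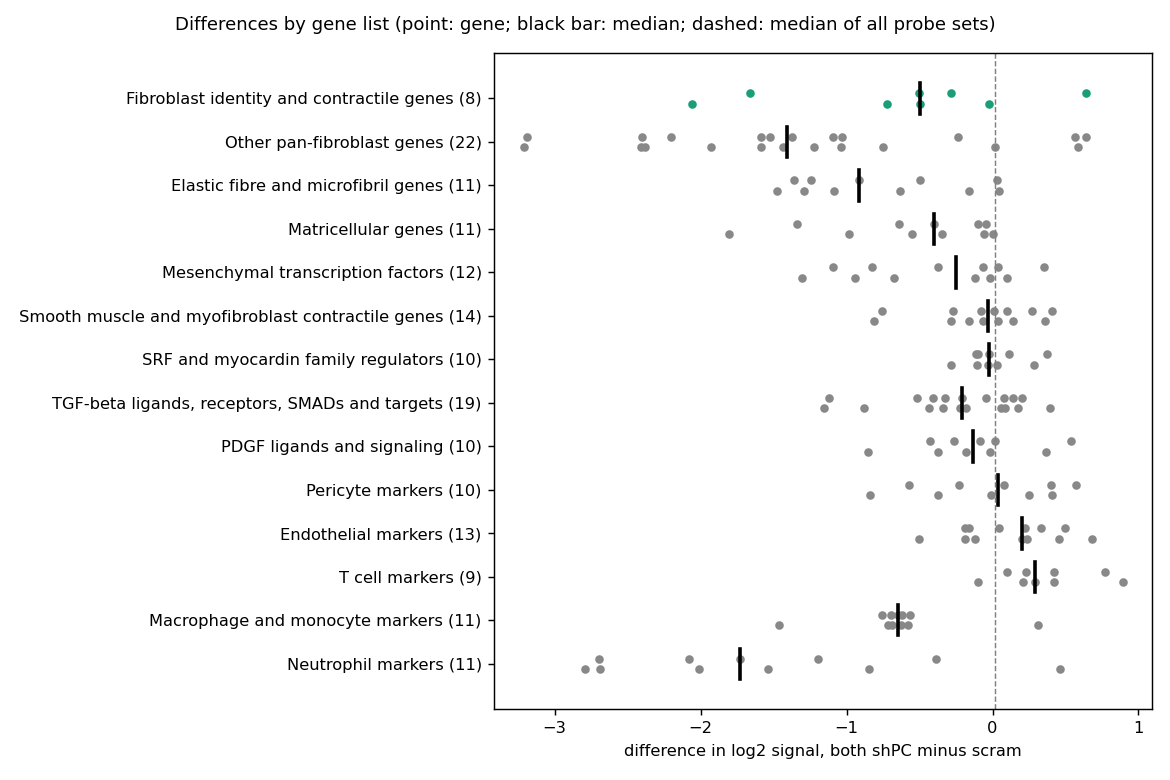
Difference in log2 signal, both shPC groups minus scram (x axis), of every measured gene of 14 lists (y axis, number of genes in brackets), with the median of each list as a black bar and of all probe sets as a dashed line. Pan-fibroblast genes (median -1.41), elastic fibre genes (-0.92) and neutrophil markers (-1.73) lie to the left, while contractile genes (-0.03) and pericyte markers (0.04) straddle the dashed line.

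Markers of other cell types were read beside the members. Of 10 pericyte markers 2 were lower and 0 higher at an unadjusted p under 0.05, and the mean of the list was 4.97 to 5.49 in shPC tumors and 4.89 to 5.46 in scram tumors. The 2 lower markers were Kcnj8 (-0.84, SE 0.29) and Ndufa4l2 (-0.57, SE 0.21). By hairpin, 3 were lower and 1 higher at an unadjusted p under 0.05 in shPC25, and 0 lower and 0 higher in shPC28. The defining pericyte genes Rgs5 (0.40, SE 0.38) and Cspg4 (-0.23, SE 0.30) had intervals that include 0, and Cspg4 read at most 4.80. Rgs5 differed by -0.07 (SE 0.47) in shPC25 and by 0.87 (SE 0.43) in shPC28. Endothelial markers had 0 of 13 at an unadjusted p under 0.05, with Pecam1 at 0.24 (SE 0.38) and Cdh5 at 0.68 (SE 0.55). Of 12 skeletal muscle markers, Acta1 included, 10 were lower and 2 higher (median -0.31), with 2 lower and 0 higher at an unadjusted p under 0.05. The 2 were Acta1 and Mb (-0.25, SE 0.11), the latter at most 4.03 in any tumor. Ckm read 3.91 to 5.18 in shPC tumors and 4.17 to 5.07 in scram tumors. Mylpf read 5.62 to 6.92 in shPC tumors and 5.96 to 7.09 in scram tumors. Single scram tumors were highest for Actn3 (7.71) and Myh4 (6.43). Adipoq, of fat cells, read 3.22 to 4.43 in shPC tumors and 2.87 to 5.84 in scram tumors. The epithelial adhesion molecule Epcam read 4.22 to 6.52 in shPC tumors and 4.67 to 6.22 in scram tumors, while Krt8 was at 13.56 to 14.61 in shPC tumors and 13.92 to 14.43 in scram tumors. Of 12 epithelial markers 6 were lower and 6 higher, with 0 lower and 1 higher at an unadjusted p under 0.05. That 1 was Cldn3 (0.64, SE 0.23), at most 3.91 in any tumor, and Krt14 differed by -2.10 (SE 0.97). By hairpin, 0 were at such a p in shPC25, and 3 were higher in shPC28. All 12 read higher in shPC28 than in shPC25 by group mean, 1 of them at an unadjusted p under 0.05.

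Myeloid markers were lower beside the fibroblast genes, with 0 past the adjusted threshold. Of 11 macrophage and monocyte markers 9 were lower at an unadjusted p under 0.05 (median -0.65), with Adgre1 at -0.58 (SE 0.25), and the list mean was 11.22 to 12.12 in shPC tumors and 12.08 to 12.55 in scram tumors. By hairpin, 10 of 11 were lower at an unadjusted p under 0.05 in shPC25 (median -0.93) and 2 of 11 in shPC28 (median -0.35), and Adgre1 differed by -0.90 in shPC25 and -0.25 in shPC28. All 11 read higher in shPC28 than in shPC25 by group mean, 3 of them at an unadjusted p under 0.05. Of 11 neutrophil markers 10 were lower and 1 higher (median -1.73), with 8 lower and 0 higher at an unadjusted p under 0.05. S100a8, not among these 8, differed by -1.54 (SE 0.80). The neutrophil list mean was 6.99 to 8.96 in shPC tumors and 8.38 to 10.42 in scram tumors. Across tumors the neutrophil mean had an r of 0.82 with Thy1, 0.71 with Fap and 0.70 with Postn, and these were 0.57, 0.58 and 0.43 after the group means were subtracted. The macrophage mean had an r of 0.68 with Thy1 and -0.62 with Twist1, which were -0.32 and 0.035 after the subtraction. The epithelial mean ran against Acta2 (-0.74) and Tagln (-0.61), and these were -0.77 and -0.89 after the group means were subtracted. The part of these cell types in the members' differences was not tested.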

How the data were processed

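RNA from 11 whole tumors was hybridized by the authors to mouse Clariom S arrays and processed with Transcriptome Analysis Console, the vendor's software. The authors deposited log2 signals of 22206 probe sets, normalized between arrays and rounded to 2 decimals. How background and probes were handled is not given in the sources used here, and no detection flags were used. The log2 values ran from 1.43 to 18.7, with array medians of 5.89 to 6.08, and 0 columns of other samples were present.

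Groups and replicate numbers came from the labels. Gene symbols came from the platform annotation, in which 19572 probe sets had 1 symbol, 0 had several and 2634 had none. Where a gene had several probe sets, the one of highest mean was taken. Group means were estimated over all 11 tumors with limma 3.58.1 (R 4.3.3, lmFit and eBayes), two-sided, with Benjamini-Hochberg adjustment over all probe sets and a threshold of 0.05. Both shPC groups were set against scram as the mean of their group means. Intervals are at 95%, and the number of arrays limits every value. The fit was tested on simulated data. Python 3.11.15 made the counts, correlations and motif searches.

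The members and 19 further lists (217 of 235 genes matched) were chosen with earlier results of these data known, so no test was made over a list. Beside the members and Pcx, the text names up to 4 genes of smallest p in each list it describes in detail, the closest relatives, the defining markers and, for each member, the 3 most alike genes, with Gm and Rik symbols skipped. Cnn1, Ccn2, Vim, Gsn, Pdgfb, Tgfb1 and Krt8 were named after their values were seen. Myh11, Mylpf, Actn3 and Myh4 were also named outside these rules. Alternatives were quantile normalization, median centring, filters on dim probe sets, a trended and robust prior, array weights, only the groups compared, the methods' t-test, the replicate block and leaving out each tumor.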

Additional observations from a re-analysis of the deposited data

Results flagged for a closer look

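Thy1 in shPC28 replicate 4 read 8.36, apart from the other shPC28 tumors at 7.30 to 7.45. The gap took up 0.858 of the range of the group, above the limit for 4 tumors. Such a gap was looked for in 18 groups of 4 tumors (the 8 members and Pcx in 2 groups), of which 1 stood out, and chance gives about 1 in 20. The same tumor had the highest mean of T cell markers (8.16, against 5.89 to 6.80 in the other shPC tumors and 5.85 to 6.83 in scram tumors) and of B cell and lymph node markers (7.08, against 3.53 to 3.78 in the other shPC tumors and 3.73 to 3.92 in scram tumors). Thy1 is a T cell gene as well, and the part of lymphoid tissue in this value was not tested. Without this tumor the Thy1 difference of both shPC groups was -2.18.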

How the results depend on the processing

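Against scram, Thy1, Postn, Twist1, Fap, Sparc and Tagln kept their direction in every alternative that held them, though Tagln in shPC28 came as near 0 as -0.009. Pdgfrb in both shPC and in shPC25, and Acta2 in shPC25, did not keep theirs. Of 562 values of single genes under an alternative, 548 kept direction and side of the threshold, 3 passed it and 11 turned sign. Pdgfrb, both shPC minus scram, was 0.073 with median centring and 0.015 with the replicate block, and -0.27 to 0.18 when 1 tumor was left out. Leaving out 1 tumor gave -0.058 to 0.83 for Pdgfrb in shPC25, -0.52 to 0.033 for Acta2 in shPC25, and medians of -0.93 to -0.40 for the members in shPC28. Members past the adjusted threshold in both shPC minus scram numbered 1 (Thy1) with the trended and robust prior and with array weights, and 0 to 1 with a tumor left out. Members at an unadjusted p under 0.05 numbered 5 with array weights in both shPC and in shPC28 minus scram, 2 to 5 for shPC28 with a tumor left out, and, between hairpins, 0 with array weights, 0 with the methods' t-test and 0 to 1 with a tumor left out. Probe sets called in both shPC minus scram numbered 0 with quantile normalization, 22 with the trended and robust prior, 8 with array weights, 0 with the methods' t-test, 0 with the replicate block and 0 to 8 with a tumor left out. For shPC25 they numbered 1 without the dimmest tercile, 1 without those below the median, 2 with the trended and robust prior, 1 with array weights and 0 to 6 with a tumor left out, and for shPC28 9 with the trended and robust prior and 0 to 1 with a tumor left out. The cause was not tested. Tumors with the same number did not deviate together (r from -0.18 to 0.14 over 10 pairs, 3 of 11 tumors most like one with their own number), so the replicate block is given here only. The mean of all probe sets of a symbol gives no other value, since each member had 1. Fap and Pcx near background have only uncertain levels.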
